A study of Mus musculus with 2 samples.

Results

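Emx1, Emx2, Lhx2, Otx1, Pax6, Nr2f1, Nr2f2, Sp8 and Dmrta2 are transcription factor genes of forebrain patterning. They were taken by symbol, and are 9 of the 21938 protein-coding genes of the mouse annotation. Open chromatin at these genes was measured by DNase-seq, which reads where DNase I, a nuclease that needs bare DNA, has cut in nuclei. The tissue was frontal cortex of female mice of the F1 hybrid strain B6CASTF1/J at an age of 25 days, in 1 group of 2 libraries with no treatment and no second condition. The libraries, called replicate 1 and replicate 2 as in the labels, have separate biosamples but 1 donor identifier, so the spread between them need not be a spread between animals. In bulk tissue, open chromatin in fewer cells and less open chromatin in each cell cannot be told apart.

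The genes are best known from the embryo, where the telencephalic wall is divided into areas by graded transcription factors under the control of signals from the edges of the cortex. Pax6 and Sp8 are highest towards the front and Emx2 and Nr2f1 towards the back, and Lhx2 and Dmrta2 set cortical against medial fate at the cortical hem. In the postnatal cortex some remain active in subsets of cells, such as Otx1 in deep-layer neurons, Emx1 in excitatory neurons, Nr2f2 in interneurons of the caudal ganglionic eminence, and Lhx2 and Pax6 in astroglial cells.

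Each open region carries a value, the authors' read-depth normalized signal for the peak, on a scale that is not stated. A region was a promoter region of a gene when it overlapped the 1 kb on either side of an annotated transcription start site (TSS) of that gene. The locus of a gene was its body with 50 kb on either side. Distances in kb run from the annotated 5′ end of the gene along transcription, with negative values upstream, and give the centre of the region.

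The strongest regions of the loci are printed first because most of them lie away from the genes' own starts. The Nr2f2 and Pax6 sequences are printed because the promoter peaks of those genes lay inside the gene and not at the 5′ end. The Emx1 region at -33.3 kb is shown for the CTCF letters described further on, and the Lhx2 region because it differed most between the libraries. All are the mm10 reference, which is C57BL/6J sequence, so alleles of the CAST parent are not shown. How reads of the CAST genome were mapped to mm10 is not given in the sources used here, and its part in the peak values and in missing peaks was not tested. Each is read 5′ to 3′ on the strand of the gene, and capitals mark bases inside an authors' footprint, a short stretch protected from cutting within an open region, in both libraries.
Emx2 region at -40.2 kb, chr19:59418121-59418320, plus strand: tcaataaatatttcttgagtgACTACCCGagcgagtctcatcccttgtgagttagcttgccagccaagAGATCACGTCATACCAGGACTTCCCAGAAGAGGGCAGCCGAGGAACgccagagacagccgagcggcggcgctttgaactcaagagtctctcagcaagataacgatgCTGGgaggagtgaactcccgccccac
Emx1 region at -27.0 kb, chr6:85160301-85160500, plus strand: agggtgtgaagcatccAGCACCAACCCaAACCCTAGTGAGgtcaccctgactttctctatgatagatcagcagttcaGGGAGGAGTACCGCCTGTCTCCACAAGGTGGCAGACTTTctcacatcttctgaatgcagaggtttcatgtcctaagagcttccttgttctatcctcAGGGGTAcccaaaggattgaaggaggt
Emx1 region at -33.3 kb, chr6:85154081-85154280, plus strand: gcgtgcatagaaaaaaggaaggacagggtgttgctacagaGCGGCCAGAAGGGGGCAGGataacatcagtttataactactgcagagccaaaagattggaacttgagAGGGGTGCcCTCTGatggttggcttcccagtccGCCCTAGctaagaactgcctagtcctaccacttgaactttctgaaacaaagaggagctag
Nr2f1 region at -1.97 kb, chr13:78201621-78201840, minus strand: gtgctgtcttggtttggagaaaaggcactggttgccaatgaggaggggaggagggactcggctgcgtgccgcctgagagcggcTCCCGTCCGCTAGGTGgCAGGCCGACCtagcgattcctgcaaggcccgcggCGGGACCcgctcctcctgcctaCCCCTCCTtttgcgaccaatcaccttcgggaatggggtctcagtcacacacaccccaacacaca
Dmrta2 region at 42.4 kb, chr4:110020381-110020600, plus strand: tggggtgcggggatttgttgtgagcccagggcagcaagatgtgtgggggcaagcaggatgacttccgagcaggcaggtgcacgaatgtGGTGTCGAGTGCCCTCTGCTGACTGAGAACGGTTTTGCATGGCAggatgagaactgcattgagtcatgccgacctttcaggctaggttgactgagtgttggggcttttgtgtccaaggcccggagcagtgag
Lhx2 region at 36.9 kb, chr2:38376041-38376260, plus strand: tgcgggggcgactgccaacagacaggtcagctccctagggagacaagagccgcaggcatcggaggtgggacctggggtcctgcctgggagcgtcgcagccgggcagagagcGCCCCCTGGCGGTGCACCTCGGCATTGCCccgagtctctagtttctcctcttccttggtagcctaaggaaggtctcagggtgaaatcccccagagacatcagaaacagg
Nr2f2 region at 5.02 kb, chr7:70361564-70361863, minus strand: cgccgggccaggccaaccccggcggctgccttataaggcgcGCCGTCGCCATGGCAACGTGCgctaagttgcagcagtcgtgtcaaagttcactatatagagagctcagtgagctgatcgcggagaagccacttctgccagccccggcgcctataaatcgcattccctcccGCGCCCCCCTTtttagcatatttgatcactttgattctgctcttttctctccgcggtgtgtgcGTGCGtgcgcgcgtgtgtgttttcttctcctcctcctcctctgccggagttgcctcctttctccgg
Pax6 footprint in the open start, chr2:105675374-105675400, plus strand: GGCTGGCGCGAGGCCCCGGCGCTGCTT

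Footprints of both libraries covered 69 bases of the Emx1 region at -27.0 kb, 58 of the Emx2 region, 44 of the Dmrta2 region and 41 of the Nr2f1 region.

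A promoter peak was called in both libraries for 8 of the 9 genes, against 61.5% of the other 21929 protein-coding genes. The exception was Nr2f1, with a promoter peak in replicate 2 only. In the authors' shorter peak lists 4 of the 9 had one in both libraries (Emx1, Lhx2, Otx1 and Pax6), against 55.6% of the others, so that the higher count rests on peaks found in the longer lists alone. The values were low for promoters. Their median was 0.971 over the 8 genes, against 2.34 over the 13489 protein-coding genes whose promoters had peaks in both, and all 8 lay under that median.

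Lhx2, a LIM homeodomain factor that selects cortical identity, had promoter values of 1.62 in replicate 1 and 1.83 in replicate 2 (mean 1.72 ± 0.149, SD, n = 2). Pax6, a paired-domain factor of radial glia, had 1.59 and 1.75 (1.67 ± 0.113, SD, n = 2). These were the highest, and their ranges overlapped. Emx1, a homeodomain factor of the dorsal telencephalon, had 1.14 and 1.04 (1.09 ± 0.0682, SD, n = 2), below both libraries of Pax6. Nr2f2, the nuclear receptor COUP-TFII, had 0.972 and 1.21 (1.09 ± 0.169, SD, n = 2), a range that spans that of Emx1. The values of Emx2, the caudal paralog of Emx1, were 0.921 and 0.782 (0.852 ± 0.0981, SD, n = 2). Otx1, a bicoid-class homeodomain factor, had 0.831 and 0.737 (0.784 ± 0.0665, SD, n = 2), from adjoining regions rather than 1 region in the 2 libraries, and overlapped with Emx2. Dmrta2, a DM-domain factor, followed with 0.661 and 0.662 (0.662 ± 0.00089, SD, n = 2). Sp8, a zinc finger factor, was lowest at 0.525 and 0.468 (0.497 ± 0.0405, SD, n = 2). Of the 293 bases of that Sp8 region, 292 in replicate 1 but 30 in replicate 2 had a false discovery rate of cutting of at most 0.05. The lowest rate in replicate 2 was 0.0395, and no footprint was called there. The values of Nr2f2 lay above those of Emx2, those of Otx1 above those of Dmrta2, and those of Dmrta2 above those of Sp8, in both libraries. Nr2f1, the nuclear receptor COUP-TFI, had 0.794 in replicate 2 from a peak of 50 bp at -0.84 kb, and no position with a false discovery rate of cutting of at most 0.05 within 1 kb of its 5′ end in replicate 1. Among coding genes whose promoters were open in both, Lhx2 stood at percentile 36.3 and Sp8 at 3.02, and Dmrta2, at percentile 7.58, was also under the 10th percentile value of 0.744.

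**Figure D1:**
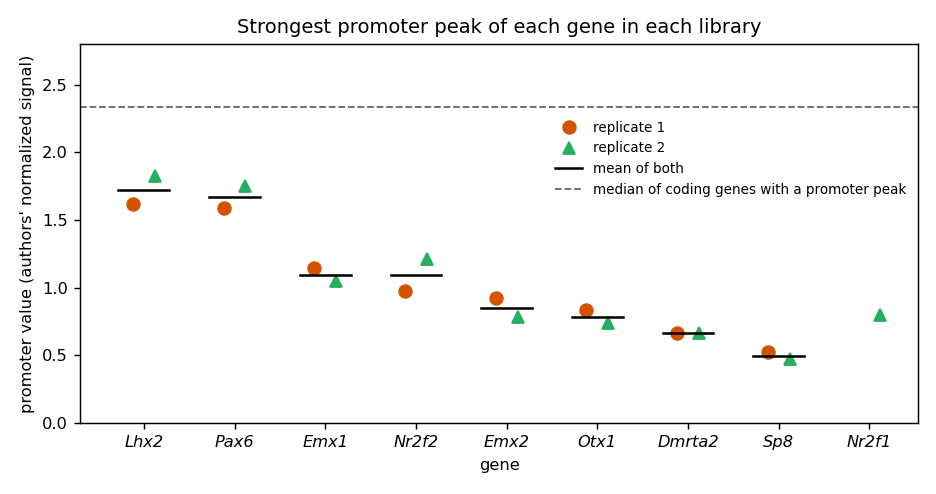
Promoter value (the authors' normalized signal, vertical axis) of each gene (horizontal axis) in replicate 1 (circles) and replicate 2 (triangles), with the mean as a bar and the median of coding genes with a promoter peak, 2.34, as a dashed line. All points lie under the dashed line, and Nr2f1 has a point in replicate 2 only.

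In 3 genes the start with a peak within 1 kb in both libraries was not the annotated 5′ end. For Nr2f2 that peak lay 868 bp from the start and did not cover it. The genes have 54 annotated TSS, which form 38 groups when those within 500 bp are joined. Of these groups 13 had a peak in both libraries, 22 in neither, 2 in replicate 1 only and 1 in replicate 2 only. Pax6 alone gave 12 of the 38, and the shares over the TSS groups of all coding genes were not computed. A peak within 1 kb of the 5′ end was called in both libraries for 5 of the 9 genes, against 56.7% of other coding genes. For Lhx2, Pax6 and Nr2f2, 3 of the 8 genes, the 5′ end lacked a peak in at least 1 library. Among other coding genes whose promoters were open in both, that was so for 7.77%, and for 10.9% of those with at least 2 groups of TSS. No test was made of this difference, which rests on 3 genes.

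Pax6 lies on chromosome 2 from 105668900 to 105697364 on the plus strand, and its 24 annotated TSS form 12 groups. Its groups 4 and 5, at 6.21 to 6.63 kb and 7.23 kb from the 5′ end, shared the peak that holds the footprint printed above. That region overlaps annotated UTR. The other 10 groups had none. At those other groups no position reached a false discovery rate of at most 0.05 in either library. The lowest rate at the open start was 1.1e-06 in replicate 1 and 3.8e-12 in replicate 2. A second, weaker region at 7.76 kb was called in replicate 2 only, at 0.634.

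Lhx2 (chromosome 2, 38339281 to 38369733, plus strand) was open at 11.8 kb, next to its internal starts at 11.5 and 12.5 kb. Its 5′ end had peaks in replicate 1 only, at 0.480, and replicate 2 had no position at or under a rate of 0.05 there. The libraries also differed at 12.9 kb, where replicate 1 had a region of value 0.881 and replicate 2 had none.

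Nr2f2 (chromosome 7, 70351944 to 70366735, minus strand) has its peak at 5.02 kb, 868 bp from the nearest annotated TSS, at 6.14 kb. Under a promoter window of 500 bp it therefore no longer counted, and neither library had a peak at the 5′ end, where the 1 kb around the start holds 13 CpG dinucleotides, the fewest of the 9 genes. The Nr2f2 sequence above shows that the footprints of both libraries in the 300 central bases of this region covered 37 bases.

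**Figure D2:**
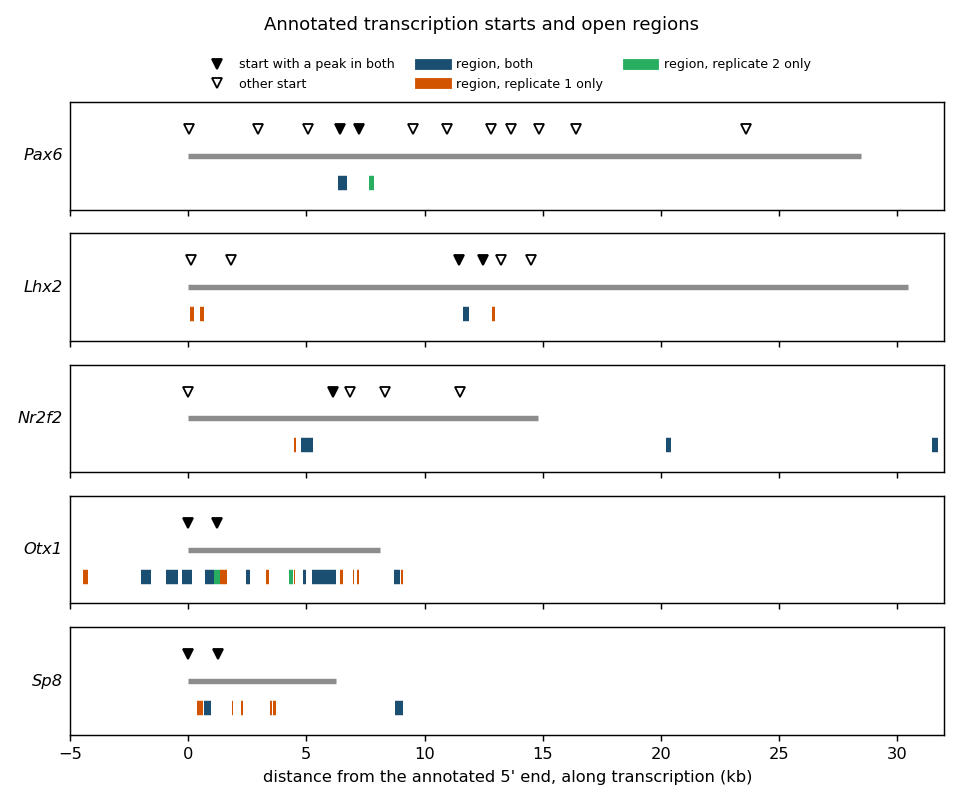
Groups of annotated TSS (triangles, filled where a peak was called in both libraries), gene bodies (grey bars) and open regions (coloured blocks, by library) against distance from the 5′ end in kb, for 5 genes. In Pax6, Lhx2 and Nr2f2 the filled triangles lie inside the gene and not at 0, and in Otx1 and Sp8 blocks crowd within and beside the gene.

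The 9 loci held 70 regions. Both libraries called 42 of them, against 53.6% of the 109538 regions of the genome. Of the others, 19 were in replicate 1 only and 9 in replicate 2 only. In the other library 24 of these 28 had no position at or under a false discovery rate of 0.05. That share was not computed for the regions of 1 library over the genome, so it is no trait of these loci. Over the 42 shared regions Spearman's rho between libraries was 0.882 and the SD of the log2 ratio 0.39, given as descriptions since regions of 1 library share its depth. The shared regions comprised 10 promoter regions of the genes themselves, 2 promoter regions of the neighbouring gene Spr, 3 other regions inside the genes, 7 in other coding genes, 7 in noncoding genes and 13 between genes. Only starts of coding genes counted for these classes. Regions within 1 kb of a noncoding start are therefore among those in noncoding genes and between genes. The median locus held 3 shared regions, or 2.84 per 100 kb, against 5 (quartiles 2 and 9), or 3.81 per 100 kb, for other coding genes. For 6 of the 9 genes the strongest shared region of the locus was not a promoter region of the gene. That was also so for 69.3% of the other coding genes with a shared region, so it does not set these genes apart.

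**Figure D3:**
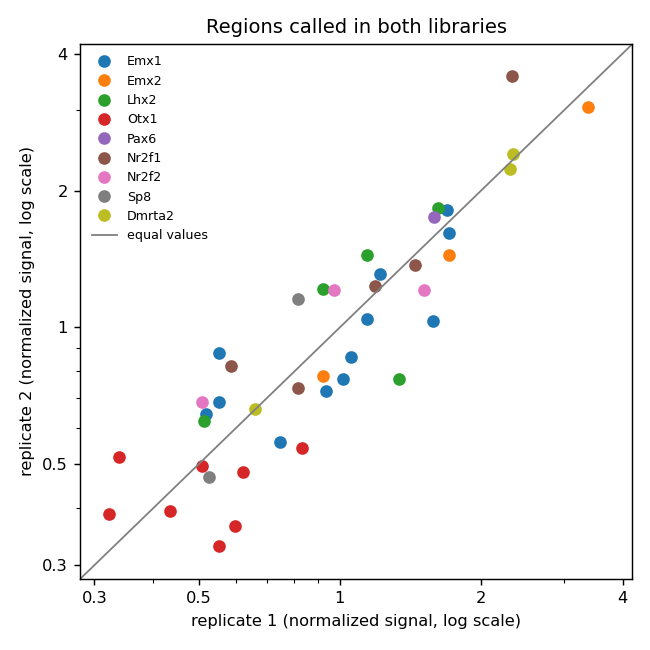
Value in replicate 1 (horizontal) against replicate 2 (vertical), both on log scales, for the 42 regions called in both libraries, coloured by gene, with the line of equal values. Emx2 and Nr2f1 regions hold the upper end and Otx1 regions the lower end.

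Emx1 (chromosome 6, 85187438 to 85204462, plus strand) had the most shared regions, 12 of its 13. Its strongest lay at -27.0 kb between genes, with values of 1.69 and 1.81. The regions at -50.1 kb (1.58 and 1.03) and -49.6 kb (1.71 and 1.62) were at the start of Spr, a gene of pterin synthesis. At -33.3 kb, in the annotated pseudogene Spr-ps1 and within 1 kb of its start, the values were 1.21 and 1.31. At 51.8 kb, within Sfxn5, they were 1.06 and 0.862. Inside Emx1 itself only the promoter region and 1 region of replicate 1 (at 2.98 kb, 0.757) were called, so most of the count came from the flanks.

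Emx2 (chromosome 19, 59458372 to 59465357, plus strand) had 3 shared regions. The region at -40.2 kb, printed above, had values of 3.37 and 3.05, the highest mean of all 9 loci. A region at -3.97 kb, in the antisense gene Emx2os, had 1.71 and 1.44. Both exceeded the promoter region of Emx2 in each library.

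Nr2f1 (chromosome 13, 78188973 to 78199757, minus strand) had no region within its body. Its strongest region, at -1.97 kb in the divergent noncoding gene A830082K12Rik and within 1 kb of an annotated start of that gene, had values of 2.33 and 3.56. The next, at -3.87 kb and also within 1 kb of a start of the same noncoding gene, had 1.45 and 1.37. That at 36.6 kb, in Fam172a, had 1.19 and 1.23. With a promoter window of 2.5 kb the region at -1.97 kb counted for Nr2f1 and all 9 genes then had one in both, against 64.5% of the other coding genes at that window. Of its regions 4 were called in replicate 2 only and 0 in replicate 1 only.

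Dmrta2 (chromosome 4, 109978053 to 109983687, plus strand) likewise had no region within its body. A pair of intergenic regions at 42.4 kb (2.34 and 2.41) and 44.4 kb (2.30 and 2.23) exceeded its promoter region in each library. Upstream of the gene the next shared region lay 301 kb away. Its promoter region had 2 footprints in replicate 1 and 0 in replicate 2.

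Nr2f2 had a region at 31.6 kb, in the noncoding gene Gm29683, with 1.51 and 1.21. Another at 20.3 kb, within 1 kb of a start of Gm44946, had 0.509 and 0.685. The Lhx2 locus had 4 shared regions beyond the gene, at 36.9 kb (1.34 and 0.771), 56.1 kb (0.921 and 1.22), 63.5 kb (0.514 and 0.622) and 64.1 kb (1.14 and 1.44). That at 36.9 kb had the widest difference between libraries of all 42, a log2 ratio of 0.80. Pax6 had no shared region outside its promoter within 50 kb. The next ones lay 52.2 kb upstream and 157 kb downstream of the gene.

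Otx1 (chromosome 11, 21994764 to 22002897, minus strand) differed in form. It had 18 regions, 8 of them shared, all between -4.36 and 9.04 kb, with none in the rest of the 50 kb flanks. The values were low, from 0.305 to 0.831. The shared regions other than promoters with the highest means were at 5.73 kb in an intron (0.622 and 0.480), -1.79 kb (0.509 and 0.497) and 8.83 kb (0.554 and 0.331). Peaks covered 27.7% of the gene body in replicate 1 and 21.2% in replicate 2 (24.5 ± 4.62%, SD, n = 2). The median over 10994 other coding genes of 5 to 35 kb was 0.936%, and Otx1 stood at percentile 99.8 of them. In the shorter lists peaks covered 8.03% of the body, and the place of Otx1 among other genes was not computed for those lists.

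Sp8 (chromosome 12, 118846329 to 118852576, plus strand) showed such a spread in 1 library only. Peaks covered 14.6% of its body in replicate 1 and 0.784% in replicate 2, and 5 of its 7 regions were in replicate 1 only, with a lowest value of 0.328. No peak of the shorter lists lay in the body. The shared region at 8.91 kb, past the 3′ end, had 0.814 and 1.15. The remaining genes had between 0% and 3.11% of the body in peaks, as a mean of the libraries.

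**Figure D4:**
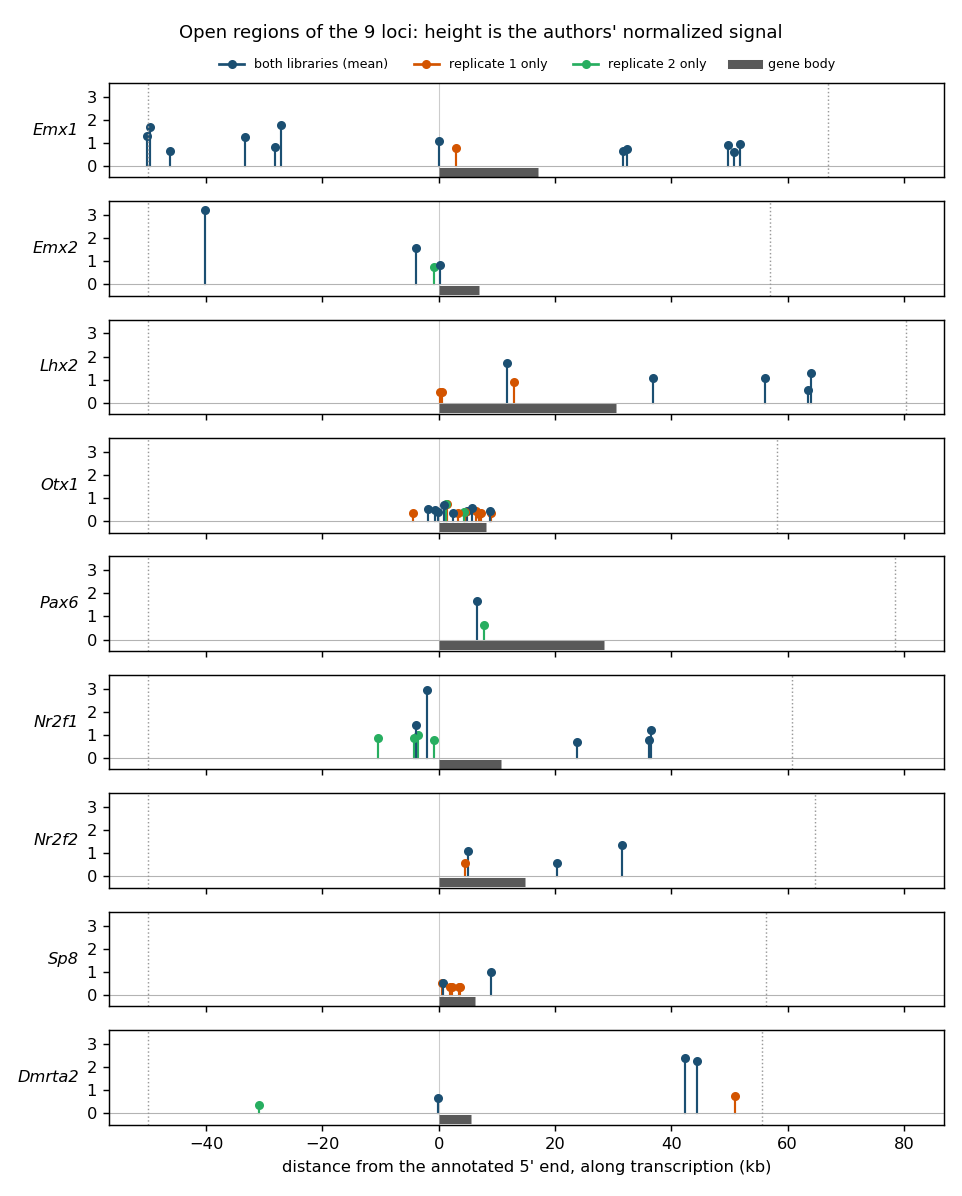
Open regions of the 9 loci by distance from the 5′ end in kb (horizontal), with the value as height (mean of both libraries, or that of the calling library) and colour for the libraries that called the region; grey bars are gene bodies and dotted lines the ends of the loci. Emx1 has regions spread over its flanks, Otx1 a dense group of low regions at the gene, and Emx2, Nr2f1 and Dmrta2 their tallest region outside the gene.

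Footprints numbered 140 in the loci in replicate 1 and 122 in replicate 2, of which 121 and 115 lay in a peak. Of the 42 shared regions, 35 had a footprint in both libraries (83.3%, exact Clopper-Pearson 95% interval 68.6 to 93.0%, counting error only), against 84.6% of all 58659 shared regions. Of the replicate 1 footprints in the loci 42.9% overlapped one of replicate 2, and 43.6% did so over the genome. The footprint rate of the loci was thus close to that of the genome.

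The letters of 19 motifs were searched on both strands, in 200 bases around the centre of each shared region. A match is a description of letters and not a binding site. The homeodomain letters TAATTA, of the kind bound by Emx and Lhx factors, matched 0 of the 42 regions and 2.28% of all 58659. The GC box GGGCGG, bound by SP and KLF factors, matched 16 of 42 (38.1%) against 24.0%. Among regions more than 1 kb from any coding TSS it matched 10 of 30 (33.3%) against 10.2%, without matching for base composition, and at coding promoters 6 of 12 against 49.9%. The insulator factor CTCF was searched with a strict core of 12 letters, CC, 3 free bases, then AG and GGGGC without a gap, which matched 3 regions (7.14%) against 4.25%. It was also searched as a relaxed core, with 2 free bases between AG and GGC, chosen after the footprint sequences were seen and including every match of the first. The relaxed core matched 9 of 42 windows (21.4%) against 19.5%.

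Over whole shared regions of the loci, 3 of 3 matches of the strict CTCF core overlapped a footprint of both libraries by at least 4 bases, against 85.3% of 2728 such matches over the genome. The strict matches of Emx1, at -46.2 and -33.3 kb, lie in much alike surrounding letters, so they need not be separate instances. For the relaxed core 10 of 11 matches overlapped such a footprint. That count is no comparison with the genome, because its letters were chosen after the footprint sequences of these loci were seen. The regions of these 10 matches were those of Emx1 at -50.1, -46.2, -33.3, -28.1, -27.0 and 49.8 kb, of Emx2 at -40.2 kb, of Lhx2 at 36.9 kb and of Nr2f1 at -1.97 kb. They include the strongest shared region of Emx1, Emx2 and Nr2f1. That is no separate support, because the letters were chosen with the footprints of these loci already seen. For the GC box 7 of 33 matches overlapped a footprint of both libraries, against 25.5% over the genome. At promoter regions of the genes themselves 3 motif matches lay in footprints of both libraries, all of them the GC box and in Emx1 and Lhx2. Those in Emx1 overlapped each other and the same shared footprint of 8 bases, so they are not separate sites. The other 16 motifs were TAATTA, the bicoid letters GGATTA of Otx factors, the nuclear receptor letters AGGTCA, the DMRT letters ACATTGT, the E-boxes CAGATG and CAGCTG, AP-1 TGANTCA, SOX ACAATGG and ETS CCGGAAG, and, by name, NFI, RFX, CRE, MEF2, POU, NRF1 and EGR. They gave 28 matches in the loci, of which 0 lay in a footprint of both libraries, against 9.34% of their 62386 matches over the genome. That percent pools motifs without a match in the loci, among them NRF1 (84.8%), NFI (57.7%), RFX (53.1%) and CRE (52.6%), but also SOX (5.04%) and TAATTA (1.19%). The motifs with the most matches in the loci, AGGTCA (8), CAGCTG (6) and CAGATG (5), stood at 5.79%, 7.57% and 9.49% over the genome. Letters were relaxed for CTCF only, so near matches of the 16 were not counted.

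The pathway around the genes was read from 6 lists. Of its 83 distinct genes, promoter peaks were called for 52 in both libraries, 20 in neither, 6 in replicate 1 only and 5 in replicate 2 only, against 61.5% in both for other coding genes. Of the signals of the cortical organizers, secreted FGF, WNT, BMP and hedgehog ligands, 7 of 14 had one in both. The highest were Wnt7b (1.72 and 1.70), Shh (1.15 and 0.817) and Fgf15 (0.915 and 1.02), and Fgf8, Fgf17 and Wnt3a were among those with none. Of the receptors and effectors of those signals, 17 of 20 had one, led by the FGF feedback inhibitors Spry1 (4.90 and 4.55) and Spry2 (2.34 and 3.25) and the hedgehog effector Gli1 (2.14 and 2.68). Lef1, a WNT effector, had none, Fgfr3 had one in replicate 1 only, and Fzd10 in replicate 2 only.

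Among other dorsal and pan-forebrain factors 7 of 14 were open in both libraries. Id4, an inhibitor of basic helix-loop-helix factors, had 2.16 and 2.89, and Sox1, a factor of neural progenitors, had 1.11 and 1.78. Six3, Fezf1 and Fezf2 were among those with none, Hesx1 and Otx2 had one in replicate 1 only and Zic1 in replicate 2 only. The ventral factors, which specify the ganglionic eminences, also gave 7 of 14. Their highest were Dlx5 (0.983 and 1.25), Dlx1 (0.932 and 1.18) and Olig2 (0.559 and 1.34). Gsx2, Nkx2-1 and Lhx6 were among those with none, a peak of Dlx2 was called in replicate 1 only, and peaks of Dlx6 and Nkx6-2 in replicate 2 only.

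Of 9 paralogs of the genes 1 was open at the promoter in both libraries, the nuclear receptor Nr2f6 (1.02 and 1.46). Lhx9, Otx2 and Dmrta1 had one in replicate 1 only and Sp9 in replicate 2 only, and Pax4, Dmrt3 and Vax1 were among those with none. Of 16 binding partners and corepressors 15 had one. The Groucho corepressors Tle4 (6.84 and 11.3), Tle1 (4.84 and 7.53) and Tle3 (4.80 and 6.94) were the highest of all 6 lists, each higher in replicate 2, and Tle2 had none. All 8 genes with a promoter value lay under both libraries of these 3 corepressors.

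**Figure D5:**
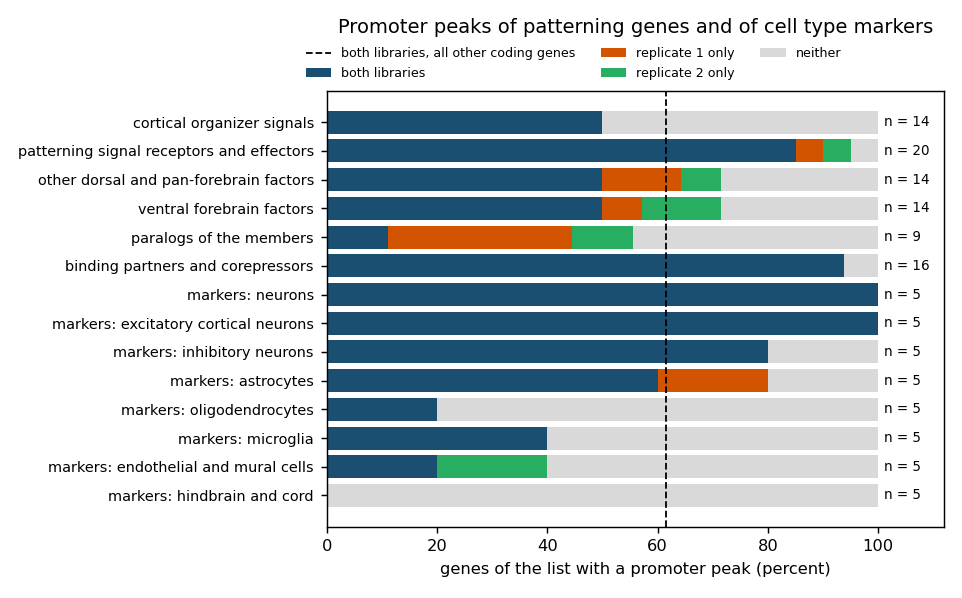
Share in percent of each list that had promoter peaks in both libraries, in 1 library or in neither, for 6 patterning lists and 8 marker lists of cell types, with n genes at the right and the 61.5% of other coding genes as a dashed line. Binding partners and neuron markers reach furthest right and paralogs and hindbrain markers least.

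Among markers of neurons 5 of 5 genes were open at the promoter in both libraries, as were 5 of 5 of excitatory cortical neurons. The count was 4 of 5 for inhibitory neurons, 3 of 5 for astrocytes and 2 of 5 for microglia. It was 1 of 5 each for oligodendrocytes and for endothelial and mural cells. Markers of hindbrain and spinal cord had 0 of 5 in both and 0 in either library. Over other coding genes the share open in both was 61.5%, and no list of 5 was tested against it. The astrocyte marker Aqp4 had a peak in replicate 1 only, and the endothelial marker Cldn5 in replicate 2 only. All listed markers of neurons and of excitatory neurons were thus open at the promoter, as most other coding genes were. The part of each cell type in the values of the 9 genes was not tested.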

How the data were processed

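Libraries of 1 group were grouped by the labels, and the peak, footprint and cutting lists of both were used. The authors deposited, per library and on mm10, peaks with a read-depth normalized signal on a scale that is not stated, in a longer and a shorter list, footprints, and positions with a false discovery rate (a q-value) of cutting of at most 0.05. Per the deposited text files, each was derived from that library's own alignment. The p-value column of the deposited footprint lists holds the constant 0.01. Aligner, callers and read numbers were not given in the sources used here. Longer lists hold 85603 peaks in replicate 1 and 87847 in replicate 2, and the footprint lists 214072 and 189951.

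The annotation was GENCODE vM21 and the sequence RefSeq GRCm38.p6, the build of mm10. Peaks of the libraries that overlapped by at least 1 bp were merged into regions over whole chromosomes. Motif matches counted as in a footprint with an overlap of at least 4 bases. With 1 group no test between conditions could be made, so members are described by counts, values, and mean ± SD over 2 libraries beside all coding genes. Scripts used Python 3.11.15, NumPy 2.4.6, SciPy 1.17.1 and matplotlib 3.10.9, and merging, promoter assignment and motif search were tested on simulated data. The named regions are every TSS group, the 3 shared regions other than promoters with the highest mean in each locus and the shared region with the largest log2 ratio. In each list the named genes are the 3 highest, up to 3 with no peak and each with a peak in 1 library, except 1 gene that is not reported here. Neighbouring Spr promoter regions, the Lhx2 region at 63.5 kb, other regions of 1 library and regions with CTCF letters were named after their values were seen. The 9 genes, the lists and the motifs were chosen with earlier results of these data known. Alternatives were the shorter lists, peaks at or above the library median, other promoter and flank widths, 5′ ends only, peak centres, a reciprocal overlap and each library alone.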

Additional observations from a re-analysis of the deposited data

How the results depend on the processing

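No paired analysis was possible because there is 1 group and no contrast. The recomputed values are counts, percents and peak signals, which cannot be negative, so no change of sign was possible. Of 119 recomputed values 81 stayed within the limits set (1.5 times for a count, 1 SD for a value) and 38 moved. Of the 38, 19 were for single genes or for the CTCF letters of all loci. The 81 overstate stability. With 2 libraries, leaving 1 out cannot move a single gene's promoter value or body share by 1 SD of those libraries. The body share of Sp8 also counted as unmoved when it went from 7.71% to 0% in the shorter lists. Promoter values of genes that lost their peak under an alternative were not among the 119. Promoter peaks in both libraries fell from 8 genes to 4 in the shorter lists and 5 at 5′ ends only. The median promoter value of 0.971 became 1.38 in the shorter lists, 0.852 at 500 bp, 1.09 at 2.5 kb, 0.687 at 5′ ends only, and 0.914 to 0.946 with either library left out, mostly over other sets of genes. Shared locus regions numbered 42, against 21 in the shorter lists, 21 at a flank of 10 kb, 65 at 100 kb and 25 for peaks at or above the library median. The median per locus rose from 3 to 5 at a flank of 100 kb. The mean footprint number of 131 became 77.5 at 10 kb and 206.5 at 100 kb, as the window itself changed. The share of shared regions with a footprint, 83.3% for both libraries, was 95.2% in the shorter lists and 90.5 to 92.9% with either library left out, where 1 library is enough. Motif matches in promoter footprints numbered 3, and 3 to 5 with either library left out. Otx1 had 24.5% of its body in peaks, 8.03% in the shorter lists and 5.41% for peaks at or above the library median. These last comparisons on motifs and gene bodies were chosen after seeing the data. Sequencing depth is unknown, so a region missing from 1 library's list is not shown to be closed there.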
